A study of Homo sapiens with 9 samples.

Results

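The name monocyte identity genes is used here for genes found in blood monocytes, or in a leukaemia that resembles them. Not all of them are specific to monocytes. The 10 genes described here (CD33, CSF1R, FCER1G, TYROBP, CD68, AIF1, S100A4, S100A6, S100A8 and S100A9) were chosen by name, out of 26929 genes in the deposited table. The choice was made with earlier results of these data known. Their transcripts were counted in MV4-11, a long-established line of human acute myeloid leukaemia cells with monocytic features. Cells had been exposed for 24 h to JPX-0700, to JPX-0750 or to the vehicle DMSO, with 3 libraries in each group and 9 in all. The series title describes these compounds as degraders that act on both STAT3 and STAT5, a pair of transcription factors activated by cytokine receptors. Every group is the same unmodified cell line with no other labelled treatment, the labels give no dose, and 1 cell line in culture is the only model. QuantSeq libraries were used, in which reads come from the 3′ ends of polyadenylated transcripts, and the table gives gene counts scaled by 1 factor per library, here called normalised counts. The sources used here do not say whether replicates came from separate cultures, so p-values measure the spread between these libraries.

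Monocytes arise from granulocyte and monocyte progenitors under the transcription factor PU.1 (SPI1) and depend on signals from colony-stimulating factor receptors. Their surface carries receptors that activate the cell through adaptor proteins with an immunoreceptor tyrosine-based activation motif (ITAM), and others that hold it back through inhibitory motifs. Their cytoplasm is rich in small calcium-binding S100 proteins, and their lysosomes in heavily glycosylated membrane proteins such as CD68. CD33 is used clinically as a surface antigen on myeloid leukaemia cells.

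The libraries differed in depth in the same direction as treatment. JPX-0700 libraries held 739418 to 1852375 reads on genes and JPX-0750 libraries 726043 to 1941860, against 2701317 to 6305586 in DMSO libraries, so 1 read was worth 0.383 to 4.61 normalised counts. Protein-coding genes took 76.9% to 79.3% of reads with JPX-0700 and 73.2% to 77.0% with JPX-0750, against 94.2% to 94.7% with DMSO. Small structured RNAs (small nuclear, nucleolar and related classes) took 8.15% to 10.1% with JPX-0700 and 11.1% to 13.5% with JPX-0750, against 0.0390% to 0.235% with DMSO. In each group 1 library stood apart by detecting the fewest genes: 10027 in JPX-0700 replicate 3, 10407 in JPX-0750 replicate 3 and 9816 in DMSO replicate 1, against 13068 to 14616 in the other 6. The labelled cell type was checked against 8 myeloid markers, of which 7 had reads in every group and AIF1 had none. They include CD33, FCER1G, TYROBP, CSF1R and AIF1, which are among the 10 genes described here, so the check is not independent of them. CD14, a monocyte marker outside those 8, had no read in any library. The 8 markers' summed level was 2072 to 6411 normalised counts in JPX-0700 libraries and 2133 to 5368 with JPX-0750, against 6105 to 9526 with DMSO. LYZ was the largest part of the DMSO sums, averaging 5336 with DMSO against 1868 with JPX-0700 and 1557 with JPX-0750. The mean of TYROBP was not lower with treatment, at 1599 with JPX-0700 and 1221 with JPX-0750 against 1098 with DMSO. The sums of 6 markers of T and NK cells ran from 22.4 to 69.5 with JPX-0700, 13.7 to 107 with JPX-0750 and 34.5 to 52.1 with DMSO. CD3D and CD3E were at 0 in JPX-0750 and DMSO libraries, while CD3D had 18 reads with JPX-0700 and NKG7 had 220 with DMSO. The sums of 6 B-cell and plasma-cell markers were 11.1 to 23.0 with JPX-0700, 0 to 27.3 with JPX-0750 and 2.30 to 17.1 with DMSO. The sums of 6 erythroid and megakaryocyte markers were 3.73 to 5.56 with JPX-0700, 0 to 13.6 with JPX-0750 and 0 to 2.68 with DMSO. JCHAIN and HBB were at 0 in all 9 libraries, as were the epithelial and fibroblast markers EPCAM, CDH1 and DCN. The summed level of 7 epithelial and fibroblast markers ran from 5.56 to 50.7 with JPX-0700, 27.3 to 130 with JPX-0750 and 28.5 to 53.7 with DMSO. Of these, KRT18 had 222 reads with DMSO, and COL1A1 had 10 with JPX-0700, 71 with JPX-0750 and 0 with DMSO.

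The 250 bases before the annotated start were read from RefSeq (GRCh38.p14) for all 10 genes, in 14 windows. STAT and PU.1 motifs were searched because the series title describes the compounds as STAT degraders and monocytes arise under PU.1. The STAT palindrome TTCNNNGAA was in 0 of the 14 windows, against 6.57% of all 35116 RefSeq windows of that length. The purine-rich PU.1 core GAGGAA, searched on both strands (TTCCTC on the other), was in 9 of 14 windows, from 7 of 10 genes, against 23.6% of all windows. Some windows of the same gene overlap, so these are not independent counts. The windows of 3 signalling genes whose values are central below are shown 5′ to 3′ on the strand of the gene, with GAGGAA or TTCCTC in capitals. They are one of the CSF1R starts (chr5:150086555-150086804, minus strand), FCER1G (chr1:161215045-161215294, plus strand) and TYROBP (chr19:35908296-35908545, minus strand).
CSF1R: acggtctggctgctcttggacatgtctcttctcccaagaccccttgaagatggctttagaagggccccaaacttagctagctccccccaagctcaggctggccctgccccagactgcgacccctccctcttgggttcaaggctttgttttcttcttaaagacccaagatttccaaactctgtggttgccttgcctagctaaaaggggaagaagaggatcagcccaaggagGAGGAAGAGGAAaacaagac
FCER1G: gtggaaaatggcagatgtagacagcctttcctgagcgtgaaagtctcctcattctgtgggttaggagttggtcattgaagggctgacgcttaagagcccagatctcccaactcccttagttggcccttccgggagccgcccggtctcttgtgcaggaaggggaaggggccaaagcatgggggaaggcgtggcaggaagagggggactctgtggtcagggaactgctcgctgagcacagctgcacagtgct
TYROBP: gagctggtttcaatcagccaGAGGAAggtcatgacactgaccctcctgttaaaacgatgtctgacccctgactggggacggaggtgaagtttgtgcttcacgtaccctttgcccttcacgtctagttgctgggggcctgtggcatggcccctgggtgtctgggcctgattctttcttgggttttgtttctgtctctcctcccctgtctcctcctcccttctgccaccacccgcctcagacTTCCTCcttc
In the CSF1R window shown the motif begins 20 and 14 bases before the start as a direct tandem. The window of the other CSF1R start (chr5:150113366-150113615, minus strand) holds none. In the TYROBP window the motif begins at 230 bases and, on the other strand, at 10 bases before the start. The FCER1G window holds none. A match is only a match of letters and was not tested as a binding site.

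Of the 10 genes, 9 reached a mean of 5 normalised counts over the 9 libraries and were tested, and AIF1 had no read. None of the 9 passed the threshold in any comparison (limma on log2 of normalised count + 1, Benjamini-Hochberg adjusted p under 0.05 over 12301 genes). In JPX-0700 against DMSO libraries 5.28% of all tested genes rose and 0.496% fell, and in JPX-0750 against DMSO libraries 3.9% rose and 0.0732% fell, so a count of 0 of 9 in either direction is near the background. In either direction together 5.77% of genes passed with JPX-0700 and 3.98% with JPX-0750. At an unadjusted p under 0.05, 0 of the 9 were lower with JPX-0700, against 6.03% of all tested genes, and 1 of the 9 (FCER1G) with JPX-0750, against 2.41%. The voom fit on recovered reads called 0 of the 9 with either compound as well. The log2 fold change was negative for 7 of the 9 with JPX-0700 and for 6 of the 9 with JPX-0750, against 46.5% and 42.5% of all tested genes with JPX-0700 and JPX-0750. The positive ones were S100A6 and TYROBP with both compounds and CD68 with JPX-0750. The members' median was -0.88 with JPX-0700 and -0.70 with JPX-0750, against medians of 0.14 and 0.26 over all tested genes. Both comparisons use the same 3 DMSO libraries, and the members were chosen with earlier results of these data known. These shares and medians therefore only describe the set.

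Together the 10 genes took 0.0856%, 0.0668% and 0.101% of reads in JPX-0700 replicates 1 to 3 and 0.0658%, 0.0808% and 0.121% in JPX-0750 replicates 1 to 3, against 0.170%, 0.148% and 0.142% in DMSO replicates 1 to 3. Every treated library was below every DMSO library on this scale. As a share of protein-coding reads the values were 0.0850% to 0.128% with JPX-0700 and 0.0900% to 0.157% with JPX-0750, against 0.151% to 0.179% with DMSO, and JPX-0750 replicate 3 then lay inside the DMSO range. On the normalised scale the sums were 2221 to 5219 with JPX-0700 and 2410 to 3922 with JPX-0750, against 3082 to 4121 with DMSO, and the groups overlapped. S100A4 and TYROBP held the most reads of the 10 genes in each group. They had 666 and 1472 reads with JPX-0700, 873 and 1652 with JPX-0750, and 7593 and 6407 with DMSO. Neither gene separated treated from DMSO libraries on the normalised scale. The lower share of all reads stands beside the lower share of protein-coding reads and the higher share of structured RNAs in the treated libraries, and their part in it was not tested. In bulk RNA, fewer cells with a transcript and less transcript per cell cannot be told apart.

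Among the surface receptors, CSF1R was the gene whose libraries did not overlap between treated and DMSO cells for either compound, though its difference did not pass the test. CSF1R is the tyrosine kinase receptor for CSF1 and IL34 and supports the survival and differentiation of monocytes and macrophages (chromosome 5, 150053295 to 150113365, minus strand, in GRCh38.p14 as for the other genes). It had 23.0, 11.2 and 5.56 normalised counts in the JPX-0700 libraries and 17.1, 40.9 and 41.6 in the JPX-0750 libraries, against 56.6, 46.8 and 70.0 in the DMSO libraries. All 6 treated values lay below the lowest DMSO value, on 10 reads in all with JPX-0700, 39 with JPX-0750 and 315 with DMSO. Fitted log2 fold changes were -2.22 ± 1.11 (SE; 95% interval -4.56 to 0.12, adjusted p = 0.284) with JPX-0700 and -0.86 ± 1.11 (-3.20 to 1.47, adjusted p = 0.769) with JPX-0750. Treated libraries lay wholly below DMSO libraries for 2 of the 9 genes with JPX-0700 (CSF1R and S100A8), against 10.3% of all tested genes. With JPX-0750 they did so for 2 of the 9 as well (CSF1R and FCER1G), against 9.18%. No member lay wholly above DMSO with either compound, against 16.5% and 19.7% of all tested genes with JPX-0700 and JPX-0750.

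CD33 is a sialic acid-binding receptor of the SIGLEC family with inhibitory motifs in its tail (chromosome 19, 51211076 to 51240016, plus strand). It had 175, 96.9 and 225 normalised counts in JPX-0700 libraries and 113, 150 and 288 with JPX-0750, against 270, 368 and 211 with DMSO. The lowest treated values were below all DMSO values, but 1 library of each treated group, replicate 3, reached into the DMSO range. The log2 fold change was -0.82 ± 0.59 (95% interval -2.06 to 0.43, adjusted p = 0.459) with JPX-0700 and -0.70 ± 0.59 (-1.94 to 0.55, adjusted p = 0.629) with JPX-0750. The within-group SD of CD33 was 0.58 on the log2 scale against a median of 1.30 over all tested genes. CD33 averaged 211 normalised counts over the 9 libraries against a median of 69.5, and spread was not compared at like level.

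**Figure D1:**
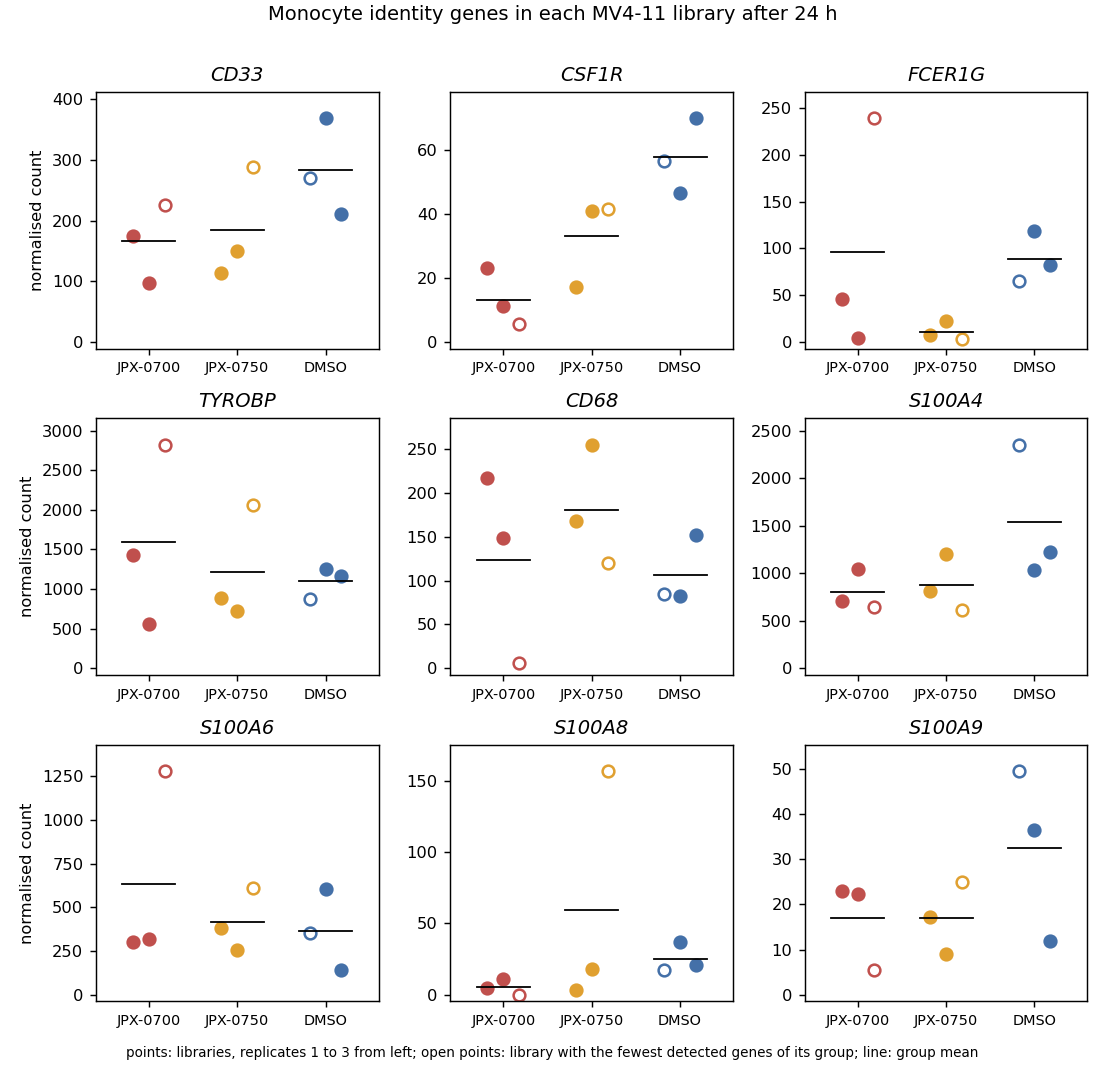
Normalised counts of the tested monocyte identity genes for JPX-0700, JPX-0750 and DMSO, on a linear axis for each gene; each point is 1 library, lines are group means, and open points are the library with the fewest detected genes of its group. CSF1R with JPX-0700 reaches 23.0 at most, below the lowest DMSO value of 46.8, while TYROBP groups overlap.

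FCER1G and TYROBP are the ITAM adaptors that Fc receptors and receptors such as TREM proteins need to signal. FCER1G, the common gamma chain of Fc receptors (chromosome 1, 161215295 to 161219245, plus strand), had 46.1, 3.73 and 239 normalised counts in JPX-0700 libraries and 6.85, 22.7 and 3.33 with JPX-0750, against 64.7, 118 and 81.8 with DMSO. Those values rest on 10, 1 and 86 reads with JPX-0700, on 2, 5 and 2 reads with JPX-0750 and on 72, 308 and 152 reads with DMSO. All 3 JPX-0750 libraries were below all DMSO libraries, whereas JPX-0700 libraries lay on both sides of them. With JPX-0750 the log2 fold change was -3.22 ± 1.34 (95% interval -6.04 to -0.39, unadjusted p = 0.0279, adjusted p = 0.260) and with JPX-0700 it was -1.20 ± 1.34 (-4.02 to 1.62, adjusted p = 0.642). Without JPX-0700 replicate 2, the library with 1 read, the JPX-0700 value was 0.30, and leaving out any 1 library gave -3.89 to -2.66 for JPX-0750.

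TYROBP, also called DAP12 (chromosome 19, 35904403 to 35908295, minus strand), had 1424, 555 and 2818 normalised counts in JPX-0700 libraries and 887, 719 and 2057 with JPX-0750, against 872, 1252 and 1169 with DMSO. Treated libraries lay both below and above the DMSO libraries. For TYROBP the log2 fold change was 0.27 ± 0.55 (95% interval -0.89 to 1.42, adjusted p = 0.812) with JPX-0700 and 0.01 ± 0.55 (-1.14 to 1.17, adjusted p = 0.997) with JPX-0750. Its sign depended on the scaling: it was -0.46 and -0.53 with JPX-0700 and JPX-0750 when libraries were scaled to equal totals.

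CD68, the lysosomal membrane glycoprotein by which macrophages are stained in tissue (chromosome 17, 7579638 to 7582111, plus strand), had log2 fold changes of opposite sign with the 2 compounds, neither past the test. It had 217, 149 and 5.56 normalised counts in JPX-0700 libraries and 168, 255 and 120 with JPX-0750, against 84.4, 82.8 and 152 with DMSO. JPX-0700 replicate 3 held 2 reads, with an exact 95% counting interval of 0.673 to 20.1 normalised counts, while replicate 1 held 47 reads and an interval of 159 to 288. These intervals cover counting error only, since the protocol names no molecular identifiers. On the log2 scale CD68 differed from DMSO by -0.79 ± 1.02 (95% interval -2.93 to 1.36, adjusted p = 0.694) with JPX-0700 and 0.75 ± 1.02 (-1.40 to 2.90, adjusted p = 0.783) with JPX-0750. Without JPX-0700 replicate 3 the JPX-0700 value was 0.81.

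AIF1, known as IBA1, is a calcium-binding protein that bundles actin and marks macrophages and microglia (chromosome 6, 31615234 to 31617015, plus strand). It was listed at 0 in all 9 libraries. Within 250 kb on either side, 30 of 34 protein-coding genes of the table were also at 0, against 22.4% of protein-coding genes in the whole table. They included DDX39B, BAG6, CLIC1 and PRRC2A, which most cells use, so the value at 0 is not read as absence of AIF1 transcripts.

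The S100 genes lie together on chromosome 1. S100A4, which binds calcium and cytoskeletal proteins (153543621 to 153545806, minus strand), had 705, 1051 and 642 normalised counts in JPX-0700 libraries and 818, 1201 and 616 with JPX-0750, against 2353, 1036 and 1223 with DMSO. DMSO replicate 1 was the highest library, and the highest treated values overlapped DMSO replicate 2. The log2 fold change was -0.88 ± 0.45 (95% interval -1.83 to 0.07, adjusted p = 0.296) with JPX-0700 and -0.77 ± 0.45 (-1.72 to 0.19, adjusted p = 0.463) with JPX-0750, and its within-group SD of 0.51 was the smallest of the 9. Without DMSO replicate 1, the highest library, the values were -0.53 with JPX-0700 and -0.41 with JPX-0750, and with 6 libraries they were -0.39 and -0.18. The gene overlaps S100A3 on the same strand, which had 0 reads in all libraries.

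S100A6, or calcyclin (153534599 to 153535991, minus strand), had 299.6, 320.5 and 1278 normalised counts in JPX-0700 libraries and 380, 255 and 613 with JPX-0750, against 354, 607 and 143 with DMSO. The 3 groups overlapped, and replicate 3 was the highest library of both treated groups. Its log2 fold change was 0.67 ± 0.64 (95% interval -0.69 to 2.02, adjusted p = 0.588) with JPX-0700 and 0.32 ± 0.64 (-1.04 to 1.67, adjusted p = 0.868) with JPX-0750. Scaled to equal totals it was -0.06 and -0.22 with JPX-0700 and JPX-0750.

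S100A8 and S100A9 form calprotectin, the abundant neutrophil and monocyte heterodimer that binds calcium and zinc, and both were sparse in MV4-11. S100A8 (153390032 to 153422583, minus strand) had 4.61, 11.2 and 0 normalised counts in JPX-0700 libraries and 3.42, 18.2 and 157 with JPX-0750, against 17.1, 37.2 and 21.0 with DMSO. The 0 in JPX-0700 replicate 3 allows up to 8.34 normalised counts by the limit of 3 reads used for a count of 0, and up to 10.3 by the exact 95% interval. JPX-0750 replicate 3 stood far above its partners, with 94 reads and a counting interval of 127 to 192 against 1 and 4 reads in replicates 1 and 2. All JPX-0700 libraries were below all DMSO libraries, and the JPX-0750 libraries lay on both sides. Fitted log2 fold changes were -2.60 ± 1.55 (95% interval -5.86 to 0.66, adjusted p = 0.370) with JPX-0700 and -0.06 ± 1.55 (-3.32 to 3.20, adjusted p = 0.992) with JPX-0750. Without JPX-0750 replicate 3 the JPX-0750 value was -1.43. S100A9 (153357854 to 153361023, plus strand) had 23.0, 22.4 and 5.56 normalised counts in JPX-0700 libraries and 17.1, 9.10 and 25.0 with JPX-0750, against 49.4, 36.4 and 11.8 with DMSO. DMSO replicate 3 was below 2 of the 3 libraries of each treated group. Its log2 fold change was -0.91 ± 1.27 (95% interval -3.57 to 1.76, adjusted p = 0.718) with JPX-0700 and -0.78 ± 1.27 (-3.45 to 1.88, adjusted p = 0.827) with JPX-0750. Leaving out 1 library moved S100A9 with JPX-0700 to as low as -1.49 when DMSO replicate 3 was left out and as high as -0.29 when JPX-0700 replicate 3 was. With JPX-0750 it reached -1.37 when DMSO replicate 3 was left out and -0.38 when DMSO replicate 1 was.

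**Figure D2:**
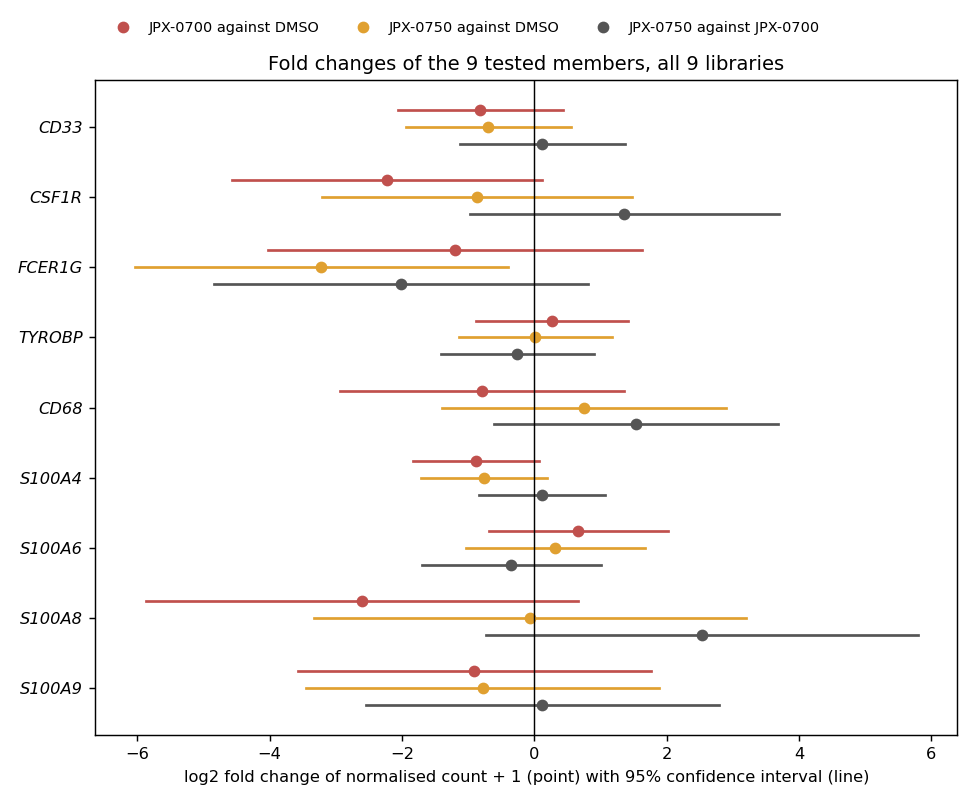
Log2 fold changes (limma, points) with 95% intervals (lines) of the 9 tested monocyte identity genes for JPX-0700 over DMSO, JPX-0750 over DMSO and JPX-0750 over JPX-0700. Of the 27 intervals, 1 leaves out 0, that of FCER1G for JPX-0750 over DMSO at -6.04 to -0.39, and it did not pass the adjusted threshold.

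Replicates of 1 group often differed by more than counting error. Over the 9 tested genes, the exact 95% counting intervals of 2 replicates were separate in 13 of 27 pairs with JPX-0700, 12 of 27 with JPX-0750 and 20 of 27 with DMSO. Deeper libraries give narrower intervals, and the DMSO libraries were the deepest, so these counts are not compared between groups. The within-group SD on the log2 scale was 1.87 for S100A8, 1.81 for FCER1G and 1.66 for CD68, above the median of 1.30 over tested genes. It was 0.51 to 0.98 for S100A4, CD33, CSF1R, TYROBP, S100A9 and S100A6. The members' means over the 9 libraries ran from 22.2 (S100A9) to 1306 (TYROBP), and spread was not compared at like level.

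Because the library with the fewest genes of each group stood apart, every value was also computed without those 3 libraries, leaving 2 a group, a choice made after the data were seen. FCER1G then fell with both compounds, with log2 fold changes of -2.74 ± 0.93 (SE, adjusted p = 0.0455) with JPX-0700 and -2.86 ± 0.93 (adjusted p = 0.0384) with JPX-0750. That is 1 of 9 members with each compound, against 5.32% of all tested genes falling with JPX-0700 and 4.62% with JPX-0750, while 19.8% and 20% rose. JPX-0700 replicate 3, left out here, was the only JPX-0700 library with FCER1G above DMSO, at 239 normalised counts and 86 reads. The JPX-0700 value then rests on 10 and 1 reads in replicates 1 and 2, and the JPX-0750 value on 2 and 5. Over the other settings tried, the adjusted p of FCER1G ran from 0.182 to 0.911 for JPX-0700 and from 0.0563 to 0.630 for JPX-0750. CD33 was at -1.09 with either compound (adjusted p = 0.107 with JPX-0700 and 0.108 with JPX-0750), and CSF1R at -1.77 (0.0655) with JPX-0700 and -1.08 (0.250) with JPX-0750. CD68 was positive with both, at 0.67 with JPX-0700 and 0.87 with JPX-0750, and TYROBP negative with both, at -0.44 and -0.60; neither gene passed the test.

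**Figure D3:**
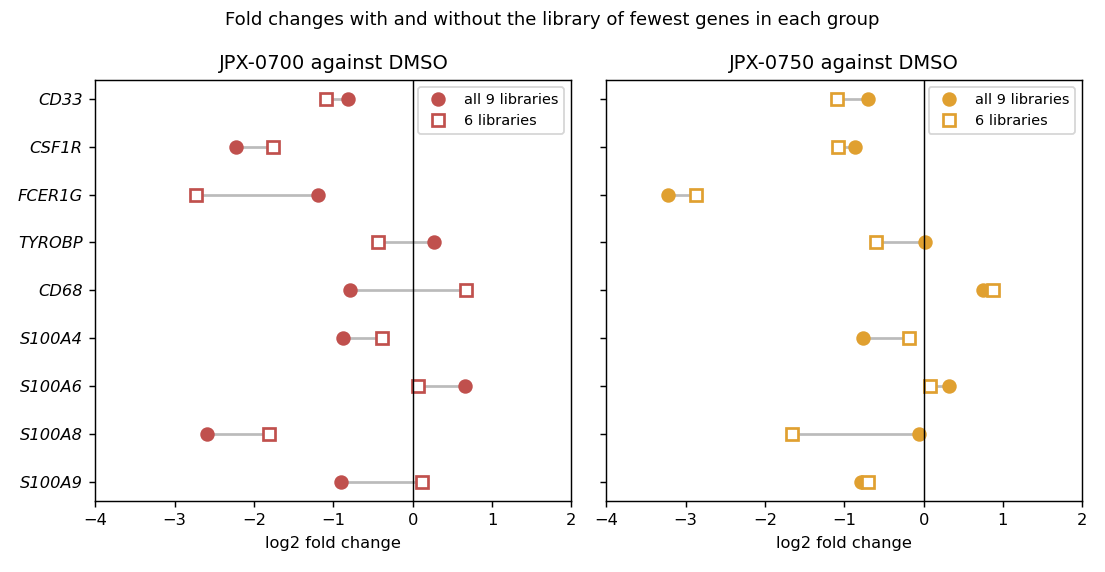
Log2 fold changes of the 9 tested genes over DMSO from all 9 libraries (circles) and without the library with the fewest genes of each group (open squares, 2 libraries a group), for JPX-0700 and JPX-0750. FCER1G with JPX-0700 is at -1.20 from 9 libraries and -2.74 from 6, and CD68 with JPX-0700 at -0.79 and 0.67.

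JPX-0750 and JPX-0700 were compared at the same labelled time, with the doses not given. This is 1 pair of compounds, with p-values adjusted over all 12301 genes. None of the 9 members differed between JPX-0750 and JPX-0700 at an adjusted p under 0.05, and 0 did at an unadjusted p under 0.05. Over all tested genes 0% passed the adjusted threshold, also with voom, and at an unadjusted p under 0.05 1.61% were higher and 1.6% lower. No member separated JPX-0750 libraries from JPX-0700 libraries without overlap, against 4.72% of genes wholly above and 3.63% wholly below. The intervals leave room for sizeable differences. For S100A8 JPX-0750 minus JPX-0700 was 2.54 (95% interval -0.73 to 5.80, adjusted p = 0.848), for FCER1G -2.02 (-4.84 to 0.81, adjusted p = 0.848), for CD68 1.54 (-0.61 to 3.68, adjusted p = 0.848) and for CSF1R 1.36 (-0.98 to 3.70, adjusted p = 0.848). The narrowest interval was that of S100A4, at 0.12 (-0.84 to 1.07, adjusted p = 0.983). CD33 was at 0.12 (-1.13 to 1.36), TYROBP at -0.26 (-1.41 to 0.90), S100A6 at -0.35 (-1.70 to 1.01) and S100A9 at 0.12 (-2.54 to 2.79).

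Other genes of monocytes and macrophages were counted from lists of related genes. Of 35 such genes 22 were tested, and 2 fell with JPX-0700 and 1 with JPX-0750, while 0 rose, beside 0.496% of all tested genes that fell and 5.28% that rose with JPX-0700, and beside 0.0732% that fell and 3.9% that rose with JPX-0750. The list's median log2 fold change was -0.63 with JPX-0700 and -0.77 with JPX-0750, against 0.14 and 0.26 over all tested genes, and the lists were chosen with these data known. CCR2, the chemokine receptor that brings monocytes out of the marrow, averaged 36.7 ± 34.8 normalised counts with JPX-0700 against 420 ± 171 with DMSO (SD, n = 3 each). It fell by 4.80 ± 1.26 on the log2 scale with JPX-0700 (adjusted p = 0.0289). The call was lost without any 1 of DMSO replicates 1, 2 and 3 (adjusted p = 0.157, 0.107 and 0.0595), and the value was -2.88 without JPX-0700 replicate 3, where CCR2 had no read. With JPX-0750 CCR2 was at -2.20 (adjusted p = 0.448) from 9 libraries and -2.56 (0.0108) from 6. TNFRSF1B, a TNF receptor, averaged 70.0 ± 67.8 with JPX-0700 against 360 ± 88.3 with DMSO and fell by 2.87 ± 0.79 (adjusted p = 0.0381). That call was lost without JPX-0700 replicates 1 or 3, JPX-0750 replicate 2 or any 1 DMSO library, with adjusted p of 0.0514 to 0.182, and without a filter (0.0539) or with only the 2 groups (0.0615). With JPX-0750 TNFRSF1B was at -1.63 (adjusted p = 0.365) from 9 libraries and -1.75 (0.0362) from 6. LYZ, the secreted lysozyme of monocytes and granulocytes, averaged 1868 ± 757 with JPX-0700 and 1557 ± 1039 with JPX-0750, against 5336 ± 1787 with DMSO. It fell by 1.93 ± 0.49 with JPX-0750 (adjusted p = 0.0292) and was at -1.55 with JPX-0700 (adjusted p = 0.0737). The JPX-0700 value passed under every other scaling tried (-2.28, -1.85 and -2.28 with equal totals, TMM and quantile normalization; adjusted p = 0.00740, 0.0353 and 0.00393), with voom (0.00634), without JPX-0700 replicate 3 (0.0484), without JPX-0750 replicate 3 (0.0393) and with 6 libraries (0.00874). Over the 20 settings tried, the LYZ value with JPX-0700 stayed uncalled in 13, with adjusted p up to 0.297. All 6 treated libraries were below all DMSO libraries for LYZ. Its JPX-0750 call was lost without JPX-0750 replicates 1 or 2 or DMSO replicates 1 or 2 (adjusted p = 0.214, 0.139, 0.0854 and 0.157).

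A list of 25 genes of ITAM receptor signalling held surface receptors and adaptors as well as genes that act downstream of them. Of these, 21 were tested, and 2 fell with JPX-0700, PIK3CD among them, and 0 with JPX-0750. Over all tested genes 0.496% fell with JPX-0700 and 0.0732% with JPX-0750. The list medians were -1.02 and -0.76, against 0.14 and 0.26 over all tested genes. PIK3CD, the leukocyte phosphoinositide 3-kinase subunit, averaged 94.0 ± 28.2 with JPX-0700 and 279 ± 125 with JPX-0750, against 715 ± 381 with DMSO. It fell by 2.77 ± 0.61 with JPX-0700 (adjusted p = 0.00975), a call lost without DMSO replicates 1 or 2 (0.0867 and 0.0728). Whether PIK3CD or CCR2 differ between compounds was tested, and 0 genes of these lists passed.

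Relatives of the other members were counted in the same way. Over all tested genes 0.496% fell and 5.28% rose with JPX-0700, and 0.0732% fell and 3.9% rose with JPX-0750. The medians over all tested genes were 0.14 and 0.26. Among other S100 genes and their receptors, 12 of 22 were tested and 0 passed with either compound (lowest adjusted p = 0.0998 with JPX-0700 and 0.0886 with JPX-0750), with list medians of 0.95 and 0.72. None of 6 tested SIGLEC and CD33-related genes passed either, with medians of -1.20 and -0.80 for JPX-0700 and JPX-0750. Neither did any of 8 tested genes listed as relatives of CSF1R, with medians of -1.06 and -0.33. The CSF1R ligands CSF1 and IL34 were not tested, with no read for CSF1 and 1 read for IL34 in all. The 6 tested lysosomal genes listed with CD68, mostly but not all for membrane proteins, had medians of -1.39 with JPX-0700 and -1.36 with JPX-0750. Of them 1, LAMP2, passed. LAMP2 averaged 297 ± 69.4 with JPX-0700 and 210 ± 70.7 with JPX-0750, against 809 ± 193 with DMSO. LAMP2 fell by 1.96 ± 0.48 with JPX-0750 (adjusted p = 0.0258) and was at -1.44 with JPX-0700 (adjusted p = 0.0968). The LAMP2 value with JPX-0700 passed with equal totals (-2.17, adjusted p = 0.0178), TMM (-1.75, 0.0438), quantile normalization (-1.84, 0.0294) and voom (-1.79, 0.0332). It stayed uncalled in 16 of the 20 settings tried, with adjusted p up to 0.361. The JPX-0750 call was lost without any 1 JPX-0750 library or without DMSO replicates 1 or 2 (adjusted p 0.0535 to 0.165). The 5 tested granulocyte and progenitor genes had medians of -2.10 with JPX-0700 and -1.69 with JPX-0750, and 1 of them passed. SRGN, the core protein of granule proteoglycan, averaged 3569 ± 590 with JPX-0700 and 5243 ± 4120 with JPX-0750, against 15184 ± 696 with DMSO. SRGN fell with both, by 2.10 ± 0.47 with JPX-0700 (adjusted p = 0.0112) and by 1.82 ± 0.47 with JPX-0750 (adjusted p = 0.0356). Leaving out any 1 library kept the JPX-0700 call, while the JPX-0750 call was lost without JPX-0750 replicates 1 or 2 or any 1 DMSO library (adjusted p 0.0856 to 0.278) or with only the 2 groups (0.0755).

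As a description, the genes most like the 2 members with the highest mean normalised count were listed by Pearson's r of log2 values over the 9 libraries, which share depth and treatment. They were NDUFAF3 (0.976), SLC39A4 (0.962) and ALAD (0.958) for TYROBP, and CALR (0.970), ACTN1 (0.963) and GCNT1 (0.962) for S100A4.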

How the data were processed

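Gene counts were made by the authors. Per the submitters' processing notes, the tools were featureCounts 2.0.3, STAR 2.4.2a, SAMtools 1.4, FastQC 0.11.9 and DESeq2 (no version listed), and the build GRCh38. The sources used here do not give the strand counted, the annotation or the treatment of reads with several hits. The authors deposited normalised counts of 26929 genes in 9 columns, with a decimal comma. In every library 100% of values were whole multiples of the smallest (tolerance 1e-06), so each library's values were read as counts over 1 size factor. Dividing by that smallest value gave whole reads, used for totals, counting intervals and an added voom fit.

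Tests used limma 3.58.1 in R 4.3.3 on log2(normalised count + 1). A filter kept the 12301 genes whose normalised counts averaged 5 or more across the 9 libraries and left out 14628, and 1 mean per group was fitted with 6 residual degrees of freedom and trended moderated variances. Comparisons were two-sided with Benjamini-Hochberg adjustment over all tested genes. "Rose" and "fell" mean an adjusted p under 0.05. Adding 1 makes folds of weakly expressed genes smaller. Coordinates, gene classes and promoter windows are from RefSeq GRCh38.p14.

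The members and lists were chosen with earlier results of these data known. Genes outside the members were named where called in a comparison with DMSO, except 1 that is not reported here, no gene was named for its change from a list with no call, and the 3 most correlated genes were named for the 2 members with the highest mean. Replicate numbers were checked for pairing by correlating deviations from group means. Same-numbered JPX-0750 and JPX-0700 libraries correlated at 0.129 to 0.190, above a limit of 0.1 in every pair. Differently numbered ones ran from -0.198 to 0.153, and JPX-0750 replicate 1 with JPX-0700 replicate 2 (0.153) also passed the limit. The numbers alone therefore do not show pairing. Same-numbered treated and DMSO libraries correlated at -0.143 to -0.044, below the limit, and differently numbered ones reached 0.188.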

Additional observations from a re-analysis of the deposited data

How the results depend on the processing

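No member passed the threshold under any setting but 1. Without the library with the fewest genes of each group, a choice made after the data were seen, 1 member (FCER1G) was called with JPX-0700 and 1 with JPX-0750, where 25.1% and 24.6% of all tested genes were called against 5.77% and 3.98%. With the replicate number as a block 5.64% and 3.85% of genes were called with JPX-0700 and JPX-0750 over DMSO and 0% for JPX-0750 over JPX-0700. The block changed no member's call. The share called over DMSO moved by over 1.5 times with JPX-0700 to 3.24% (no filter), 10.5% (mean of at least 50), 3.40% (without DMSO replicate 1) and 3.14% (without DMSO replicate 2), and with JPX-0750 to 2.20% (no filter), 6.85% (mean of at least 50), 7.01% (only the 2 groups), 6.45% (voom) and 2.10% to 9.29%. Under a mean of at least 50, CSF1R, S100A8 and S100A9 were not tested. Scaling moved the median of all genes from 0.14 (JPX-0700) and 0.26 (JPX-0750) to -0.52 and -0.25 with equal totals, -0.13 and 0.01 with TMM and -0.20 and -0.15 with quantile normalization.

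Of 531 member values under alternatives, 489 kept their sign and side of the threshold, 40 changed sign, none of them past the threshold, and 2 (FCER1G) newly passed; the cause was not tested. For JPX-0700 over DMSO, TYROBP became -0.46 (equal totals), -0.035 (TMM), -0.16 (quantile), -0.011 (voom) and -0.44 (6 libraries), S100A6 -0.064 (equal totals), CD68 0.67 and S100A9 0.11 (6 libraries). For JPX-0750 over DMSO, TYROBP became -0.53, -0.25, -0.20, -0.17 and -0.60 in the same settings, S100A6 -0.22 (equal totals) and S100A8 0.13 (pseudocount 5). For JPX-0750 over JPX-0700, S100A9 became -0.87 (quantile) and -0.81 (6 libraries), CD33 -0.0010 and S100A6 0.0057 (6 libraries). Leaving out 1 library gave, for JPX-0700 over DMSO, FCER1G -2.54 to 0.30, TYROBP -0.29 to 0.88, CD68 -1.72 to 0.81 and S100A6 -0.015 to 1.14. For JPX-0750 over DMSO it gave S100A8 -1.43 to 1.15, TYROBP -0.44 to 0.32 and S100A6 -0.25 to 0.79. CD33 ran from -1.08 to -0.47 with JPX-0700 and from -1.08 to -0.41 with JPX-0750, and CSF1R with JPX-0750 from -1.07 to -0.46. For JPX-0750 over JPX-0700 it gave CD33 -0.26 to 0.41, TYROBP -0.87 to 0.30, CD68 -0.059 to 2.47, S100A4 -0.14 to 0.34, S100A6 -0.71 to 0.33 and S100A9 -0.50 to 0.49. Treated libraries give few reads for CSF1R, FCER1G, S100A8 and S100A9, which limits those values most.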
